A study of Mus musculus with 2 samples.

Results

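The guanylate-binding proteins are large GTPases that interferons switch on in most cell types, and 7 of their mouse genes, Gbp2, Gbp3, Gbp4, Gbp5, Gbp6, Gbp7 and Gbp8, were followed here by gene symbol among the 32285 genes that the count tables list. The tables come from droplet-based single-cell RNA sequencing of immune cells taken from tumours of MC38, a mouse colon carcinoma line, on day 14 after inoculation. There were 2 libraries. One was of mice of the Ifnar1-SA genotype and the other of wild-type mice (WT), both given the same MC38 line and no treatment. The protein made from Ifnar1 is part of the receptor for type I interferon. SA is not spelled out in the labels, which call the cells both infiltrating immune cells and CD8 T cells. The sources used here give neither the number of animals per library, their age and sex, nor any sort before loading. The genotype is that of the host, so tumour cells in either library come from the same inoculated line.

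In mice these proteins assemble on the membranes of vacuoles that hold bacteria or parasites and on the bacteria themselves, break them open and help inflammasomes to form. Interferon gamma, which is made mainly by T cells and NK cells, is their strongest known inducer, and type I interferon induces them as well. In tumours their transcripts are commonly read as a sign that a cell has received an interferon signal.

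All 7 are protein-coding genes in 2 clusters, given here on GRCm38, the assembly also called mm10. Gbp5, Gbp7, Gbp3 and Gbp2 lie on the plus strand of chromosome 3 between positions 142493978 and 142638008. Gbp8, Gbp4 and Gbp6 lie on the minus strand of chromosome 5 between 105014150 and 105293698. The chromosome 3 cluster is the one whose deletion is known to weaken control of Toxoplasma gondii in mice. On chromosome 5 the annotated loci of Gbp4, Gbp8 and their relative Gbp9 overlap on the same strand. Of all 50-base stretches of the annotated transcripts, 49.9% of those of Gbp6 also occurred in another gene of the family (45.9% in Gbp10), as did 18.1% of those of Gbp8 and 7.53% of those of Gbp4. The share was 3.75% or less for the 4 members on chromosome 3. Counts of Gbp6, Gbp8 and Gbp4 are therefore uncertain wherever reads could have been split between copies.

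Interferon-stimulated genes often carry the interferon-stimulated response element, and its core was searched as GAAA, any 2 bases and GAAA again, on both strands, in RefSeq promoters of 300 bases, which hold 250 bases before and 50 after a gene's start. The table held 5 promoters, from 4 of the 7 members. Each of these 4 members had a promoter with the core, while a further Gbp3 promoter (chr3:142560106-142560405) had none. Of all 32851 promoters in the table, 3.44% had the core. In each of the 4 members it was found on the minus strand, so on the plus strand it reads TTTC, any 2 bases and TTTC. The following windows (GRCm38.p6, plus strand) show the matched bases in capitals, because this is the sequence feature that members on chromosome 3 share outside the rule that chose them. A match describes letters and not a bound site.
Gbp2, chr3:142620579-142620638: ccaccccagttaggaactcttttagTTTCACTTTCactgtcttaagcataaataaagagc
Gbp3, chr3:142559974-142560039: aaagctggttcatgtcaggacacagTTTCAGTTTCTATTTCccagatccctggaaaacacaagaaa
Gbp5, chr3:142496744-142496803: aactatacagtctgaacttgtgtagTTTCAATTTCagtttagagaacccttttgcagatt
Gbp7, chr3:142530258-142530317: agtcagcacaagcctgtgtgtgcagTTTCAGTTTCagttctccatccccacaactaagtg

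The first matched base lay 59 bases before the start in Gbp2, 53 in Gbp7 and 165 in Gbp5. Gbp3 held 2 overlapping matches, at 45 and 39 bases before the start. The gamma-activated site, searched as TTCNNNGAA, which reads the same on both strands, was found in the promoters of Gbp5 and Gbp7 but not in these windows of Gbp2 and Gbp3. It occurred in 8.3% of all promoters of that length.

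Barcodes were kept with at least 1000 UMIs (unique molecular identifiers, each standing for a captured transcript), detected genes numbering 500 or more, and no more than 10% of UMIs from mitochondrial genes. This left 5001 barcodes in Ifnar1-SA and 4058 in WT, with medians of 7176 and 8016 UMIs. The libraries shared 7 kept barcodes. The Ifnar1-SA library mixed 3327 barcodes with Xist and no Y-linked UMI and 537 with Y-linked UMIs and no Xist, against 3714 and 1 in WT. Cells were gated by marker UMIs: CD8 T (883 barcodes in Ifnar1-SA and 1155 in WT), regulatory T cells or Treg (751 and 457), macrophage (2327 and 1613) and tumour-like (209 and 196). A barcode could pass several gates. Of the CD8 T gate, 17.0% in Ifnar1-SA and 9.96% in WT also passed the macrophage gate, and of the Treg gate 28.6% and 19.0%. The tumour-like gate rests on Rhox5, Tm4sf1 and Sdc2. Its pan-leukocyte gene Ptprc was at 13.7 CPM (UMIs of the gene scaled to 1e+06 UMIs of the gate) in Ifnar1-SA and 13.8 CPM in WT, while Epcam and Krt18, which mark epithelial cells, had 0 UMIs, so the gate is named by its rule and not as epithelium. With 1 library per genotype nothing below has a replicate check, no p-value is given, "higher" and "lower" compare these libraries, and every interval is a 95% interval that covers counting error only. Fewer expressing cells and less RNA per cell cannot be told apart from summed counts.

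The family's summed level was on average highest in tumour-like barcodes, at 828 CPM in Ifnar1-SA and 1063 CPM in WT, a range that overlaps that of the monocyte gate described below. Treg barcodes held 742 CPM in Ifnar1-SA and 641 CPM in WT. Macrophage barcodes held 639 and 552 CPM in the same order of libraries. CD8 T barcodes were lowest, with 457 CPM in Ifnar1-SA and 390 CPM in WT. Free RNA, read from barcodes of 10 to 100 UMIs, carried the members at 448 CPM in Ifnar1-SA and 381 CPM in WT, about the level of the CD8 T gate. The order of the gates differed from member to member.

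**Figure D1:**
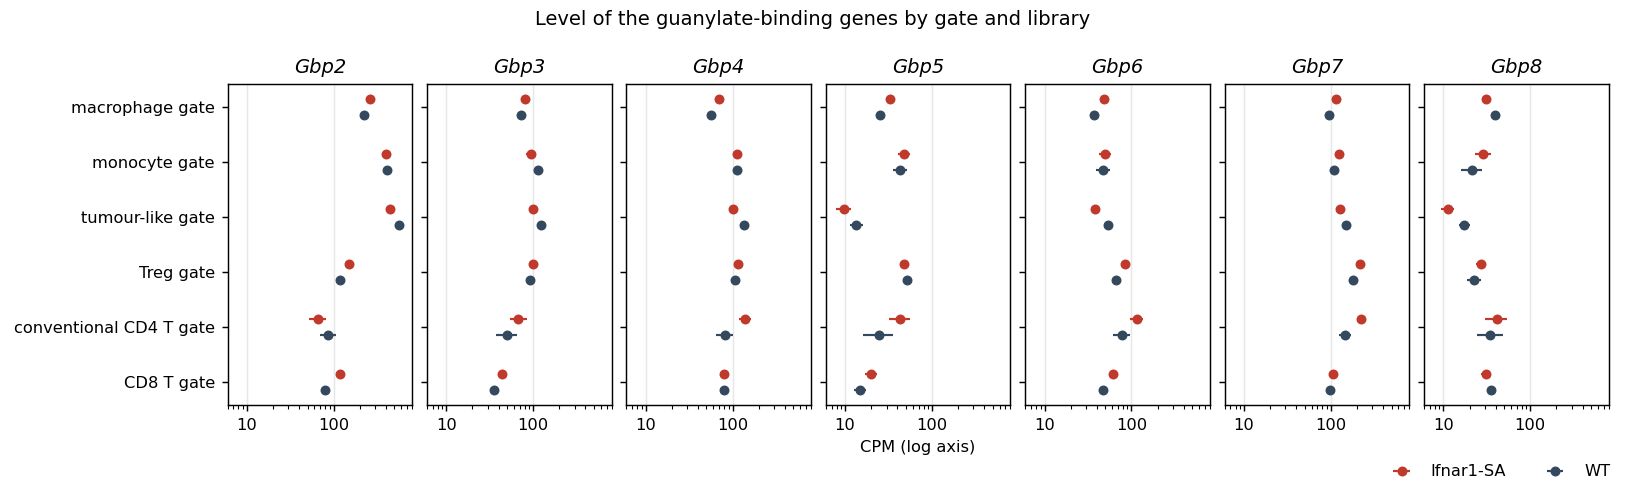
CPM of each member (log axis) in 6 gates, Ifnar1-SA above WT, with exact Poisson 95% intervals that cover counting error only. Gbp2 is highest in the tumour-like, monocyte and macrophage gates and Gbp7 in the Treg and conventional CD4 T gates. The monocyte gate is drawn with its 12 Ifnar1-SA and 14 WT tumour-like barcodes and the T cell gates with their macrophage-gate barcodes.

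Gbp2, a lipid-anchored member that coats pathogen vacuoles, was a myeloid and tumour-like transcript in these libraries. It stood at 441 CPM in Ifnar1-SA and 568 CPM in WT in tumour-like barcodes, and at 262 and 224 CPM in macrophages. In the Treg gate it was at 151 CPM in Ifnar1-SA and 119 CPM in WT, and in the CD8 T gate at 117 and 79.8 CPM. In the conventional CD4 T gate Gbp2 was at 65.1 CPM in Ifnar1-SA and 86.6 CPM in WT, which overlapped the CD8 T gate. The Treg and CD8 T levels include barcodes that also passed the macrophage gate. Without them, and with at most 1 C1q UMI, Treg barcodes held Gbp2 at 60.4 CPM in Ifnar1-SA and 43.4 CPM in WT. That is under the conventional CD4 T gate, which had no such C1q limit.

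Gbp7, which in mice is known to help assemble the phagocyte NADPH oxidase, was highest on average in the Treg gate. It reached 216 CPM in Ifnar1-SA and 182 CPM in WT in the Treg gate. Tumour-like barcodes had 128 and 151 CPM, macrophages 114 and 96.3 CPM, and CD8 T barcodes 105 and 96.6 CPM, each with Ifnar1-SA first. The macrophage and CD8 T levels overlapped between libraries, as did those of the Treg and conventional CD4 T gates and those of the conventional CD4 T and tumour-like gates.

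Gbp5, known for promoting assembly of the NLRP3 inflammasome, was at 47.4 CPM in Ifnar1-SA and 52.0 CPM in WT in the Treg gate, which overlapped the monocyte gate at the top of its order. It was lowest in tumour-like barcodes at 9.65 and 13.5 CPM. Macrophages and CD8 T barcodes lay between these, with 33.0 CPM in Ifnar1-SA and 25.4 CPM in WT in macrophages and 19.8 and 14.8 CPM in CD8 T barcodes. Gbp5 and Gbp8 were the members that fell below 20 CPM, the minimum set for calling a gene measured, in the tumour-like gate.

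Gbp3 was at 98.9 CPM in Ifnar1-SA and 125 CPM in WT in tumour-like barcodes, and at 98.9 and 92.0 CPM in the Treg gate. Its lowest gate was CD8 T, with 43.7 CPM in Ifnar1-SA and 35.5 CPM in WT. Gbp4, which has been described in mice as a brake on the transcription factor IRF7, was lowest in macrophages at 69.2 CPM in Ifnar1-SA and 56.7 CPM in WT. Its Treg level was 117 and 107 CPM and its tumour-like level 101 and 134 CPM. Gbp6 was at 84.9 CPM in Ifnar1-SA and 66.8 CPM in WT in the Treg gate and at 48.2 and 37.2 CPM in macrophages. Gbp8 had 11.2 CPM in Ifnar1-SA and 17.5 CPM in WT in tumour-like barcodes, below its level in every other gate.

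Lineages were compared inside each library after barcodes that passed more than 1 gate were removed and the T cell gates were limited to at most 1 UMI of C1qa, C1qb and C1qc together, a choice made after the C1q level of the T gates was seen. In these selections 6 of 7 members were higher in Treg than in CD8 T barcodes in both libraries without overlap (44.9% of all measured genes were), and Gbp8 was lower (20.9% of genes). Gbp7 was at 298 CPM in Ifnar1-SA and 203 CPM in WT Treg barcodes, against 84.9 and 89.8 CPM in CD8 T barcodes. Gbp3 was at 111 and 97.0 CPM in Treg against 24.1 and 22.8 CPM in CD8 T barcodes, again with Ifnar1-SA first. Macrophages were higher than CD8 T barcodes for Gbp2, Gbp3 and Gbp7, 3 of 6 measured members (36.7% of genes), and lower for Gbp4 and Gbp6 (51.1% of genes). Tumour-like barcodes exceeded macrophages for Gbp2, Gbp3, Gbp4 and Gbp7 (4 of 7, against 60.4% of genes) and were below them for Gbp5 and Gbp8 (31.8% of genes). Monocytes without tumour-like barcodes were higher than macrophages for Gbp2, Gbp3 and Gbp5 (3 of 7, against 35.7% of genes) and lower for 0 (32% of genes). Of these shares, that of Treg over CD8 T lay farthest above the share over all genes.

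The share of Gbp2 in the family separated the tumour-like, macrophage and Treg gates, as defined, more than the genotypes. This did not hold among the T cell gates in WT, at 18.6% in Treg, 20.5% in CD8 T and 17.3% in conventional CD4 T barcodes. In tumour-like barcodes Gbp2 gave 53.3% of the member UMIs in Ifnar1-SA and 53.4% in WT, and in macrophages 41.0% and 40.7%. In the Treg gate Gbp2 gave 20.3% in Ifnar1-SA and 18.6% in WT, and Gbp7 29.1% and 28.3%. These are shares of captured molecules that are not corrected for transcript length, so they are read between gates and not as levels of one gene against another. The CD8 T gate as defined was less alike between the libraries, with 25.6% of member UMIs from Gbp2 in Ifnar1-SA and 20.5% in WT. So was the conventional CD4 T gate, with 9.37% and 17.3%. The Treg and CD8 T shares include barcodes that also passed the macrophage gate. In the lineage selections above, CD8 T barcodes held Gbp2 at 25.5 of 333 family CPM in Ifnar1-SA and 20.3 of 317 in WT. Treg barcodes there held Gbp2 at 60.4 of 812 family CPM in Ifnar1-SA and 43.4 of 611 in WT.

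**Figure D2:**
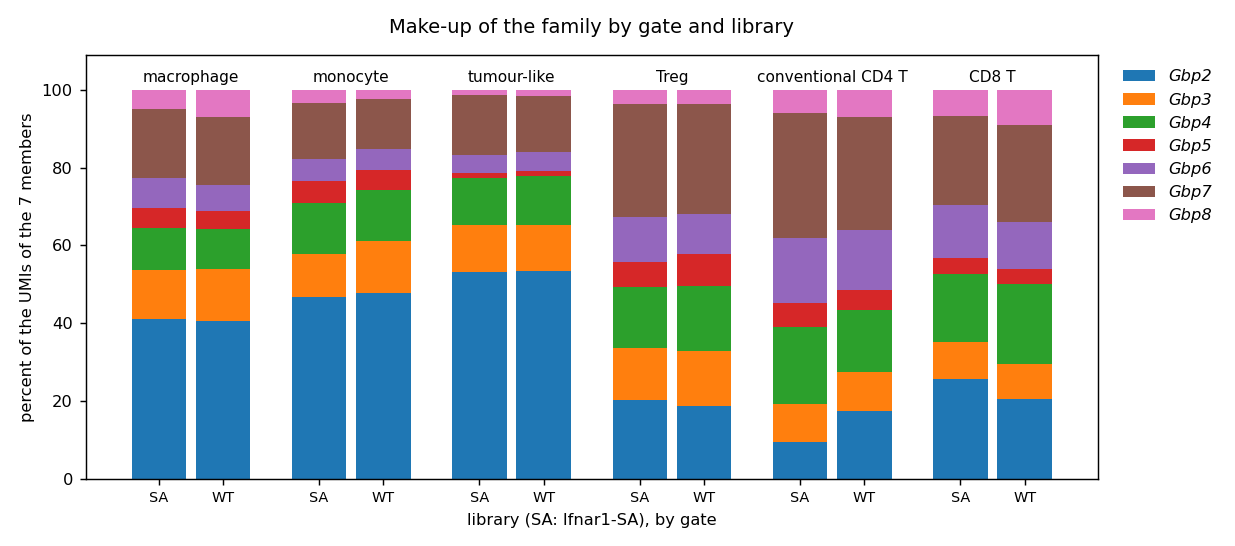
Percent of the UMIs of the 7 members that came from each member, by gate, with the Ifnar1-SA bar left of the WT bar. Gbp2 makes up 53.3% and 53.4% of the tumour-like bars and 20.3% and 18.6% of the Treg bars, while the paired bars of a gate are close to each other in the macrophage, tumour-like and Treg gates. The Treg and CD8 T gates are drawn with their macrophage-gate barcodes.

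In macrophages nearly the whole family was slightly higher in Ifnar1-SA. A member is called higher or lower when the interval of its log2 ratio of Ifnar1-SA over WT lies wholly on one side of 0. By that rule 6 of 7 members were higher, against 40.9% of 4972 measured genes, and 1 was lower, against 13.8%. Gbp2 was at 262 CPM in Ifnar1-SA and 224 CPM in WT (log2 ratio 0.22, interval 0.17 to 0.27). Gbp6 showed the widest gap upward, with 48.2 CPM in Ifnar1-SA and 37.2 CPM in WT (0.38, 0.25 to 0.50), and Gbp5 had the same log2 ratio of 0.38. The remaining higher members were Gbp4 (0.29), Gbp7 (0.24) and Gbp3 (0.15). Gbp8 went the other way, with 31.3 CPM in Ifnar1-SA and 39.0 CPM in WT (-0.32, -0.45 to -0.18). No member reached a fold of 1.5 in either direction, as 1.43% of genes did upward and 0.805% downward. The median over the members was 0.24, beside 0.07 over all measured genes of the gate. Markers of other cells differed in this gate too. Ly6c2 and Ccr2, which mark monocytes, were at 735 and 280 CPM in Ifnar1-SA, against 450 and 177 CPM in WT, and the T cell gene Ctla4 was at 115 CPM in Ifnar1-SA and 63.9 CPM in WT. Without barcodes of other gates the counts were again 6 higher and 1 lower, with the share of all genes not counted there. Ctla4 was then at 41.3 CPM in Ifnar1-SA and 14.6 CPM in WT and Ly6c2 at 746 and 433 CPM. Their part in the members' difference was not tested.

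**Figure D3:**
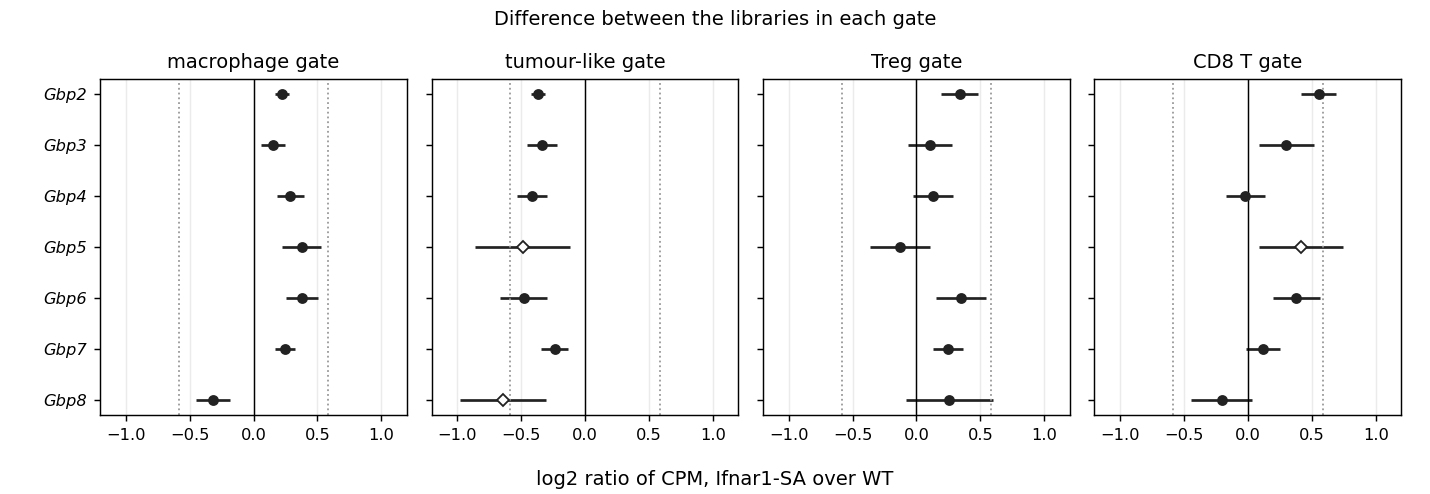
log2 ratio of CPM, Ifnar1-SA over WT, of each member in 4 gates, with exact 95% intervals that cover counting error only. Dotted lines mark a fold of 1.5, and open diamonds mark members under 20 CPM. In macrophages 6 members lie above 0 and Gbp8 below, and all 7 lie below 0 in the tumour-like gate.

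Tumour-like barcodes showed the opposite direction. All 5 measured members were lower in Ifnar1-SA, against 11.2% of 5437 measured genes, and 0 were higher, against 20.7%. Gbp2 was at 441 CPM in Ifnar1-SA and 568 CPM in WT (-0.36, -0.42 to -0.31). Gbp4 was at 101 CPM in Ifnar1-SA and 134 CPM in WT (-0.41), and Gbp6 at 38.2 and 53.3 CPM (-0.48). Gbp3 and Gbp7 had ratios of -0.34 and -0.24. The unmeasured members were also below WT, at -0.49 for Gbp5 and -0.64 for Gbp8. The measured members' median was -0.36, beside 0.04 over all genes. None of the 5 measured members reached a fold of 1.5 (1.03% of genes did downward and 0.166% upward). The unmeasured Gbp8 passed it downward, at 0.64 of its WT level. Macrophage and T cell transcripts were lower in the gate as well, with C1qa at 73.5 CPM in Ifnar1-SA and 120 CPM in WT, Lyz2 at 104 and 174 CPM and the T cell genes Cd3e, Cd3g and Trac summed at 17.3 and 28.0 CPM. Among barcodes of this gate alone C1qa was at 12.1 CPM in Ifnar1-SA and 9.55 CPM in WT and Lyz2 at 21.8 and 18.5 CPM. The T cell gene Cd3g was at 1.02 and 3.04 CPM there, and again 5 members were lower and 0 higher. The share of all genes was not counted for that selection.

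The tumour-like difference sat in the deeper barcodes. Among barcodes below their library's median depth the family was at 1164 CPM in Ifnar1-SA and 1174 CPM in WT. At or above the median it was at 675 and 1013 CPM. Per barcode the median family level was 642 CPM in Ifnar1-SA and 840 CPM in WT, with middle quartiles of 372 to 1236 CPM and 442 to 1396 CPM that overlap widely. When each barcode was thinned to 2000 UMIs the summed log2 ratio was -0.01 (-0.22 to 0.21), against -0.36 from summed UMIs. With each barcode weighted equally, and all UMIs kept, it was -0.23. Thinning also gives barcodes equal weight, but it rests on a random draw that leaves few UMIs. The 10% of barcodes richest in members held 33.8% of the family's UMIs in Ifnar1-SA and 36.7% in WT.

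In the Treg gate as defined, 3 of 7 members were higher in Ifnar1-SA, against 17.2% of 5356 measured genes, and 0 were lower, against 19.3%. They were Gbp2 (0.34), Gbp6 (0.35) and Gbp7 (0.25). None reached a fold of 1.5, as 3.92% of genes did upward and 1.81% downward. The C1q genes of macrophages summed to 5769 CPM in Ifnar1-SA and 4309 CPM in WT in this gate, and more of its Ifnar1-SA barcodes passed the macrophage gate. In the cleaned selection (382 Ifnar1-SA and 275 WT barcodes, C1q at 52.5 and 45.9 CPM) 4 of 7 members were higher, against 12.1% of genes, and 0 were lower, against 13.0%. Gbp7 was then at 298 CPM in Ifnar1-SA and 203 CPM in WT (0.55, 0.38 to 0.73) and Gbp6 at 112 and 70.5 CPM (0.67, 0.37 to 0.96). Gbp4 was at 146 CPM in Ifnar1-SA and 119 CPM in WT (0.29, 0.06 to 0.53). Gbp2 dropped to 60.4 CPM in Ifnar1-SA and 43.4 CPM in WT (0.48, 0.09 to 0.87), under its free RNA level of 138 and 139 CPM, and with the C1q limit alone its log2 ratio was -0.0668. The summed family was at 812 CPM in Ifnar1-SA and 611 CPM in WT, a log2 ratio of 0.41 where the gate as defined gave 0.21. The 28 Ifnar1-SA barcodes of the gate with Y-linked UMIs and no Xist, set against all WT barcodes, gave -0.11 (-0.37 to 0.15).

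In the CD8 T gate the calls changed when barcodes with macrophage transcripts were left out. As defined, the gate had 3 of 6 measured members higher in Ifnar1-SA, against 23.8% of 5183 measured genes, and 0 lower, against 20.5%. Gbp2 led with 117 CPM in Ifnar1-SA and 79.8 CPM in WT (0.55, 0.42 to 0.69), followed by Gbp6 (0.38) and Gbp3 (0.30). A fold of 1.5 was reached by none of the members, and by 5.61% of genes upward and 2.26% downward. The C1q genes stood at 4818 CPM in Ifnar1-SA and 3037 CPM in WT in the same barcodes. In the cleaned selection of 567 Ifnar1-SA and 824 WT barcodes, with C1q at 59.4 and 46.0 CPM, Gbp2 was at 25.5 CPM in Ifnar1-SA and 20.3 CPM in WT (0.33, -0.08 to 0.73). Gbp6 alone was called there, with 67.0 CPM in Ifnar1-SA and 47.2 CPM in WT (0.50, 0.25 to 0.76), so 1 of 6 members was higher, against 14.9% of genes, and 0 were lower, against 16.8%. Gbp4 at 87.8 and 90.3 CPM and Gbp7 at 84.9 and 89.8 CPM had intervals that included 0. The family summed to 333 CPM in Ifnar1-SA and 317 CPM in WT, a log2 ratio of 0.07. With the C1q limit alone, in 588 and 839 barcodes, the Gbp2 ratio was -0.25 (-0.55 to 0.05). In the gate as defined, the 143 Ifnar1-SA barcodes with Y-linked UMIs and no Xist set against all WT barcodes gave a summed ratio of -0.31 (-0.49 to -0.14) and -1.68 for Gbp2, while barcodes with Xist and no Y-linked UMI (582 and 1121) gave intervals above 0 for both.

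**Figure D4:**
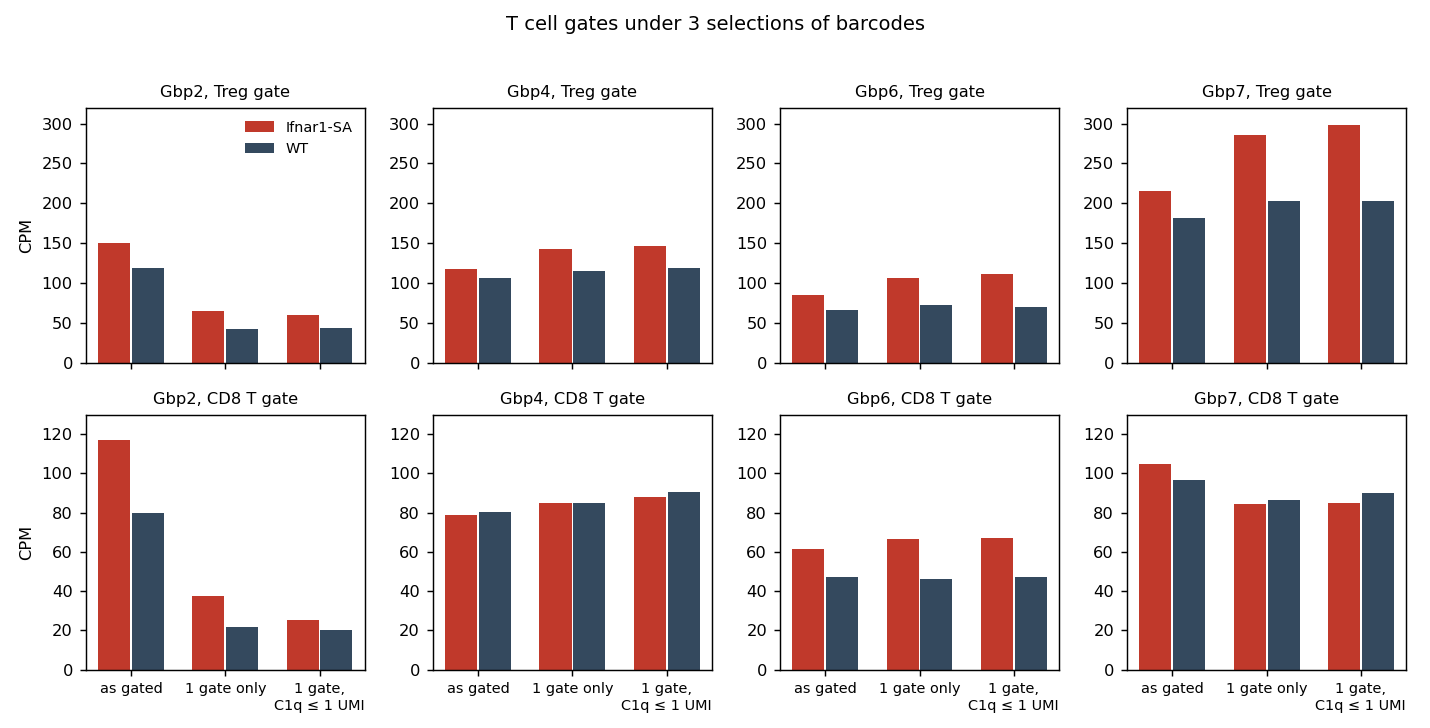
CPM of Gbp2, Gbp4, Gbp6 and Gbp7 in the Treg gate (top) and the CD8 T gate (bottom), Ifnar1-SA left of WT, for the gate as defined, for barcodes of 1 gate only, and for those with at most 1 C1q UMI. Gbp2 drops in both gates, to 25.5 and 20.3 CPM in CD8 T barcodes, while Gbp7 in Treg climbs to 298 and 203 CPM.

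A further pair of gates extended the comparison. Conventional CD4 T barcodes (244 in Ifnar1-SA and 207 in WT) carried Cd4 but no Foxp3 UMI and fewer than 20 C1q UMIs each. They also held the Treg-associated genes Ikzf2, at 1144 CPM in Ifnar1-SA and 949 CPM in WT, and Ctla4, at 843 and 775 CPM, so the gate goes partly against its name. Here 4 of 7 members were higher in Ifnar1-SA, against 9.23% of genes, and 0 were lower, against 6.64%. Gbp7 was at 224 CPM in Ifnar1-SA and 146 CPM in WT (0.62, 0.32 to 0.91), Gbp4 at 139 and 81.0 CPM (0.78), Gbp6 at 116 and 77.2 CPM (0.58) and Gbp5 at 42.9 and 24.5 CPM (0.81). Of these, 3 passed a fold of 1.5 upward, as 7.8% of genes did, and 0 downward, as 3.99% did. Gbp2 rested on 76 UMIs in Ifnar1-SA and 92 in WT, and its interval included 0. The C1q genes summed to 335 CPM in Ifnar1-SA and 187 CPM in WT, Cxcl9 was at 105 and 46.1 CPM and Ly6c2 at 378 and 206 CPM, and the part of this myeloid RNA in the difference was not tested.

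Monocytes were gated on Ly6c2, Ccr2 and Plac8. As gated (450 barcodes in Ifnar1-SA and 280 in WT) the family stood at 853 CPM in Ifnar1-SA and 860 CPM in WT, with 0 of 7 members higher, against 15.1% of genes, and Gbp3 alone lower, against 11.6%. None reached a fold of 1.5 (3.57% of genes upward and 3.55% downward). However, 12 Ifnar1-SA and 14 WT barcodes also met the tumour-like gate, and Rhox5 was at 146 and 132 CPM. Without these barcodes, an alternative added after that level was seen, Rhox5 was at 4.89 CPM in Ifnar1-SA and 2.08 CPM in WT, and the family at 856 and 679 CPM (0.34, 0.24 to 0.44). In that selection 5 of 7 members were higher, against 14.6% of genes, and 0 were lower, against 11%. Gbp2 was at 390 CPM in Ifnar1-SA and 333 CPM in WT (0.23, 0.09 to 0.38). Gbp4 was at 111 CPM in Ifnar1-SA and 62.3 CPM in WT (0.84, 0.52 to 1.16) and Gbp6 at 52.5 and 28.0 CPM (0.91, 0.44 to 1.39). Gbp7 and Gbp8 were the other higher members, and Gbp3 was at 92.8 and 91.8 CPM. In this selection Gbp4, Gbp6 and Gbp8 (0.74) passed a fold of 1.5 upward. The share of all genes that did so there was not counted.

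Within macrophages the family differed more between barcodes with and without Cxcl9, a chemokine gene that interferon gamma induces, than between the genotypes. This split was chosen after values were seen. Barcodes of the macrophage gate alone were thinned to 2000 UMIs and split by whether a Cxcl9 UMI remained. With Cxcl9 the family was at 825 CPM in Ifnar1-SA (798 barcodes) and 737 CPM in WT (606 barcodes). Without Cxcl9 it was at 487 CPM in Ifnar1-SA (1124 barcodes) and 398 CPM in WT (773 barcodes). Gbp2 with Cxcl9 was at 398 CPM, against 185 CPM without, in Ifnar1-SA, and at 314 against 140 CPM in WT. In both libraries 5 of 7 members had an interval wholly above 0, as 1.63% of 4654 genes did, and 0 were lower, as 1.55% were. The exceptions were Gbp6 and Gbp8. Cxcl9 itself was at 931 CPM in Ifnar1-SA and 1162 CPM in WT macrophages (-0.32), the opposite direction to 6 of the members.

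**Figure D5:**
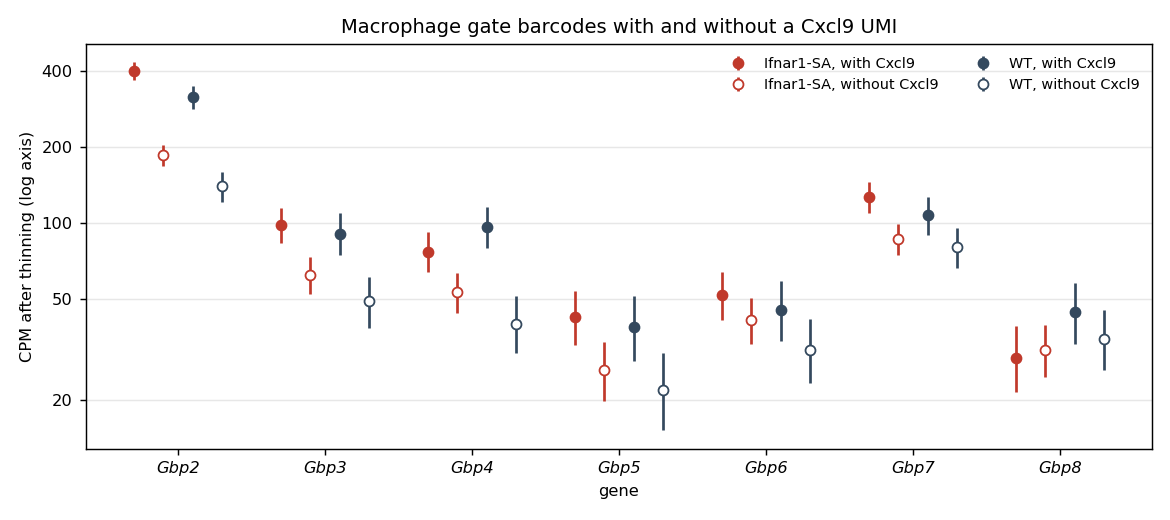
CPM (log axis) of each member in macrophage barcodes thinned to 2000 UMIs, with a Cxcl9 UMI (filled) and without (open), Ifnar1-SA left of WT, with exact Poisson 95% intervals that cover counting error only. Gbp2 is at 398 CPM with and 185 CPM without Cxcl9 in Ifnar1-SA, and at 314 and 140 CPM in WT, while the Gbp8 intervals overlap.

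The share of barcodes with a member depends on depth. After thinning to 2000 UMIs, at least 1 member was seen in 61.0% of macrophage barcodes in Ifnar1-SA (interval 59.0 to 63.0) and 54.8% in WT (52.3 to 57.2), whose median depths were 11672 and 12318 UMIs before thinning. In the CD8 T gate the shares were 51.5% in Ifnar1-SA and 42.0% in WT, and in the Treg gate 71.5% and 68.3%. Tumour-like barcodes gave 71.8% in Ifnar1-SA and 70.9% in WT, with intervals that overlap. Before thinning, Gbp7 was seen in 90.4% of Ifnar1-SA and 94.4% of WT tumour-like barcodes. At least 3 members were seen after thinning in 8.62% of Ifnar1-SA and 8.31% of WT macrophage barcodes. A Gbp2 UMI remained in 33.6% of macrophage barcodes in Ifnar1-SA and 28.3% in WT, against 69.4% and 69.2% before thinning. In the CD8 T gate, whose barcodes also held C1q transcripts, that share was 12.4% in Ifnar1-SA and 6.65% in WT. The part of free RNA and macrophage RNA in the CD8 T share was not tested. Macrophage barcodes with Gbp2 held another member in 57.0% of cases in Ifnar1-SA and 52.4% in WT, and those without Gbp2 in 41.3% and 36.9%. Across the 6 gates and both libraries, 12 points that share libraries and barcodes, log2(CPM + 10) of Gbp6 and Gbp7 had a Pearson correlation of 0.82 and Gbp2 and Gbp3 of 0.77. Gbp2 and Gbp8 had -0.69, and 8 of the 21 pairs were negative, as a description without a test.

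Genes around the family were read from lists, beside the share of all measured genes called by the same rule, which was 40.9% higher and 13.8% lower in macrophages, 17.2% and 19.3% in the Treg gate, 23.8% and 20.5% in the CD8 T gate, and 20.7% and 11.2% in the tumour-like gate. Type I interferon genes were higher in Ifnar1-SA in 27 of 28 measured members in macrophages, where Oas1a was lower, in 25 of 26 in the Treg gate and in 24 of 25 in the CD8 T gate. They were lower in 14 of 23 and higher in 0 in tumour-like barcodes. The list's median in macrophages was 0.47, beside 0.24 for the guanylate-binding members. Ifi27l2a, an abundant interferon-induced gene, was at 4402 CPM in Ifnar1-SA and 3222 CPM in WT macrophages (0.45), Bst2, which tethers virions, at 1670 and 1465 CPM (0.19), and Isg15, a ubiquitin-like modifier, at 1053 and 837 CPM (0.33). In the cleaned T selections the list had 23 of 25 higher in Treg barcodes (12.1% of genes) and 17 of 20 in CD8 T barcodes (14.9%). In tumour-like barcodes Isg15 was at 444 CPM in Ifnar1-SA and 580 CPM in WT (-0.39).

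The immunity-related GTPases, which act with guanylate-binding proteins on parasite vacuoles in mice, were counted in the same way. Higher members numbered 6 of 6 in macrophages (40.9% of genes), 5 of 5 in CD8 T (23.8%) and 4 of 7 in Treg barcodes (17.2%), where 1 was lower. In tumour-like barcodes 4 of 7 were lower (11.2% of genes) and 0 higher. Iigp1, which coats the vacuole of Toxoplasma gondii, was at 256 CPM in Ifnar1-SA and 213 CPM in WT macrophages (0.27) and at 286 and 370 CPM in tumour-like barcodes (-0.37). Irgm1, a regulator of the other GTPases, was at 135 CPM in Ifnar1-SA and 110 CPM in WT macrophages (0.30).

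Genes of the interferon gamma pathway did not share one direction. In macrophages 9 of 17 were higher and 3 lower, near the 40.9% and 13.8% of all genes, among the lower ones Cxcl9 and Ciita, the activator of MHC class II genes (16.8 CPM in Ifnar1-SA and 24.5 CPM in WT, -0.54). Psmb8, an immunoproteasome subunit, was at 946 CPM in Ifnar1-SA and 905 CPM in WT (0.06). In tumour-like barcodes 2 of 14 were higher and 5 lower, with Cxcl9 at 273 CPM in Ifnar1-SA and 631 CPM in WT (-1.21) and Cxcl10 at 691 and 1146 CPM (-0.73). Ifng, the cytokine itself, was at 681 CPM in Ifnar1-SA and 254 CPM in WT in the CD8 T gate (1.42), where 6 of 16 genes of the list were higher (23.8% of genes) and 2 lower (20.5%). In the conventional CD4 T gate Ifng went the other way, with 89.1 CPM in Ifnar1-SA and 177 CPM in WT (-0.99, -1.35 to -0.64). In the Treg gate 5 of 16 were higher (17.2% of genes) and 3 lower (19.3%), with Ifng at 118 CPM in Ifnar1-SA and 12.9 CPM in WT (3.19, 2.82 to 3.57).

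Of the inflammasome genes that lie downstream of these GTPases, 4 of 11 were higher and 2 lower in macrophages, near the 40.9% and 13.8% of all genes. In the CD8 T gate 5 of 8 were higher (23.8% of genes) and in the Treg gate 6 of 9 (17.2%), with 0 lower in both. Zbp1, a nucleic acid sensor, was at 437 CPM in Ifnar1-SA and 358 CPM in WT macrophages (0.29). Il1b was at 420 CPM in Ifnar1-SA and 568 CPM in WT (-0.44), and Ninj1, which ruptures the membrane of dying cells, at 123 and 173 CPM (-0.50). Pycard, the inflammasome adaptor, was at 375 and 364 CPM with an interval that included 0. In tumour-like barcodes 1 of 5 was higher and 1 lower. Genes that conjugate ubiquitin-like proteins or attach lipids to these GTPases were higher in 5 of 10 in macrophages, near the 40.9% of all genes, and in 5 of 11 in CD8 T barcodes (23.8% of genes), and lower in 0. There Pggt1b, a subunit of a prenyltransferase, was at 32.9 CPM in Ifnar1-SA and 23.0 CPM in WT macrophages (0.52). In the Treg gate 5 of 10 were higher (17.2% of genes) and 0 lower, and in tumour-like barcodes 5 of 12 were higher (20.7%) and 1, Rnf213, was lower.

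Relatives outside the 7 members were Gbp9, Gbp2b and Gbp10. Gbp9 was at 33.0 CPM in Ifnar1-SA and 25.8 CPM in WT macrophages (0.35, 0.20 to 0.50) and at 47.2 and 30.8 CPM in the Treg gate (0.62, 0.34 to 0.90). Gbp2b, which neighbours Gbp2 on chromosome 3 and shares 2.03% of the 50-base stretches of Gbp2, went the other way in macrophages. It had 226 UMIs in Ifnar1-SA and 307 in WT there, or 7.74 and 13.9 CPM (-0.84, -1.10 to -0.59), which is under the minimum for a measured gene. Gbp10 held 37 UMIs in Ifnar1-SA and 15 in WT in that gate.

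The genes whose level was most like the summed family across the same 12 points were ranked by Pearson correlation of log2(CPM + 10) over 4366 genes. They were Apol9b (0.91), Derl1 (0.91), Iigp1 (0.89), Chmp3 (0.89), Ddit3 (0.88), Krcc1 (0.88), Arhgap5 (0.88) and Camk2d (0.87). Gbp3 was the member most like the sum, at 0.94, and Gbp8 the least, at -0.64.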

How the data were processed

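The values are raw UMI counts per gene and barcode, deposited by the authors. Per the file headers, Cell Ranger 4 made them, and per the submitters' processing notes the reads were placed on mm10. The annotation release and alignment settings were not given in the sources used. Totals were 62732220 UMIs in Ifnar1-SA and 55497066 in WT, over 6794880 listed barcodes each.

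The members, gates, gene lists and tests were chosen with earlier results of these data known. Gates needed at least 2 UMIs of Cd3e, Cd3g and Trac with 2 of Cd8a and Cd8b1 (CD8 T) or 1 of Foxp3 (Treg), 20 of C1qa, C1qb and C1qc (macrophage), or 10 of Rhox5, Tm4sf1 and Sdc2 (tumour-like). Of 11 additional gates, 2 held at least 50 barcodes in each library and were used. UMIs were summed per gate and library and scaled to CPM. Ratios have exact conditional binomial intervals, levels exact Poisson intervals and shares Clopper-Pearson intervals, all at 95%. A gene counted as measured with a mean of 20 CPM and 30 UMIs over both libraries. The interval code was tested on simulated data. Genes named were all members, their relatives, and from each list those with most UMIs or the highest or lowest ratio in the macrophage and CD8 T gates. Genes named outside this rule, among them Cxcl9, Isg15 and Iigp1 in tumour-like barcodes, Rnf213 and the genes that describe a gate, were chosen after their values were seen. Doublets were not removed, and Scrublet scores (scanpy 1.11.5, Python 3.11.15) served as an alternative. Counts of the genes Gbp11 and Gm12250 were not analysed here. Gbp11, annotated as a polymorphic pseudogene and not matched in the count tables, was included in the comparison of 50-base stretches. It was the closest gene there for Gbp4 and Gbp8. Loci came from the GENCODE annotation and promoters from RefSeq.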

Additional observations from a re-analysis of the deposited data

Results flagged for a closer look

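Of the 7 members, 6 had opposite directions in macrophage and tumour-like barcodes, while Gbp8 was lower in Ifnar1-SA in both (-0.32 and -0.64). The difference between these gates was not tested, and the share of all genes with opposite directions was not counted. Gbp5 and Gbp8 were under the minimum for a measured gene in tumour-like barcodes. After thinning, the tumour-like ratios of Gbp2 (0.11), Gbp3 (0.15) and Gbp6 (0.57) were above 0, as in macrophages. For Gbp2 the log2 ratio (Ifnar1-SA over WT) was 0.22 in macrophages and -0.36 in tumour-like barcodes. Gbp3 had 0.15 and -0.34, Gbp4 0.29 and -0.41, and Gbp5 0.38 and -0.49, with macrophages first. Gbp6 had 0.38 and -0.48, and Gbp7 0.24 and -0.24. All members summed had 0.21 in macrophages and -0.36 in tumour-like barcodes. The tumour-like values rest on 209 Ifnar1-SA and 196 WT barcodes.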

How the results depend on the processing

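No paired analysis was possible because each genotype is 1 library and the labels number no replicates; leaving a library out was likewise not possible. The summed log2 ratio of Ifnar1-SA over WT stayed positive in all 13 alternatives in macrophages (0.16 to 0.32). In the tumour-like gate it was negative in all 12, but thinning brought it to -0.00638 with an interval of -0.22 to 0.21. It was positive in 14 of 15 in the CD8 T and in 14 of 15 in the Treg gate. Of 385 alternatives for single members, 23 changed sign, 13 of them where the reported interval excluded 0 and 10 where it included 0. The cause of these changes was not tested.

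Barcodes of 1 gate gave summed ratios of 0.16 in CD8 T, 0.38 in Treg and 0.16 in macrophages, and doubled thresholds 0.14 in CD8 T and 0.12 in Treg. In CD8 T, at most 1 C1q UMI gave 0.0216, and together with barcodes of 1 gate 0.0696; that pair gave 0.41 in Treg. Equal weights gave 0.12 in CD8 T, 0.17 in macrophages and -0.23 in tumour-like barcodes. Thinning gave 0.31 in CD8 T, 0.11 in Treg and -0.00638 in tumour-like barcodes. Without the 5 barcodes richest in members the ratio was 0.29 in Treg and -0.30 in tumour-like barcodes. Median-ratio scaling gave 0.16 in macrophages, and a mitochondrial maximum of 5% gave -0.46 in tumour-like barcodes. Barcodes with Xist and no Y-linked UMI gave -0.96 there, from only 24 Ifnar1-SA and 29 WT barcodes. The monocyte gate gave 0.34 without tumour-like barcodes.

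Ifnar1-SA barcodes with Y-linked UMIs against all WT barcodes gave -0.31 in CD8 T (143 barcodes), -0.11 in Treg (28) and 0.32 in macrophages (227). Members whose reported interval excluded 0 and that changed sign there were Gbp2 (-1.68), Gbp3 (-0.72) and Gbp5 (-0.54) in CD8 T, Gbp2 (-1.23), Gbp6 (-0.0479) and Gbp7 (-0.0900) in Treg, and Gbp3 (-0.0724) and Gbp7 (-0.0179) in macrophages. At most 1 C1q UMI turned Gbp2 to -0.25 in CD8 T and -0.0668 in Treg. Thinning turned Gbp2 (0.11), Gbp3 (0.15) and Gbp6 (0.57) in tumour-like barcodes, where few UMIs remained.

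The number of members at least 1.5-fold higher, 0 as reported in these gates, was 2 in CD8 T after thinning. It was 1 in CD8 T for barcodes of 1 gate, equal weights, Scrublet removal, without the 5 richest barcodes and for Xist barcodes. It was 1 in Treg for barcodes of 1 gate, with the C1q limit added, after Scrublet removal, thinning and without the 5 richest barcodes, and 1 in macrophages for Y-linked barcodes. The shares of all genes that reached this fold under these alternatives were not counted.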

Other observations

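In CD8 T barcodes of 1 gate, thinned to 2000 UMIs, the family was at 389 CPM with an Ifng UMI and 446 CPM without one in Ifnar1-SA. In WT it was at 420 CPM with and 334 CPM without. The log2 ratio of with over without was -0.20 in Ifnar1-SA (-0.47 to 0.07) and 0.33 in WT (0.09 to 0.57). The Ifnar1-SA interval includes 0, so an order was seen in WT alone. Macrophages with a UMI of the proliferation genes Mki67 or Top2a held 598 CPM, against 630 CPM without, in Ifnar1-SA, and 503 against 552 CPM in WT. In the Treg gate the values were 745 against 847 CPM in Ifnar1-SA and 595 against 827 CPM in WT. For the proliferation genes the interval lay wholly below 0 in WT Treg barcodes (-0.47, -0.77 to -0.18). It included 0 in Ifnar1-SA Treg barcodes and in macrophages of both libraries. These splits were chosen after values were seen, and their Ifnar1-SA and WT differences were not tested.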
